A study of Homo sapiens with 30 samples.

Results

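INHBA, GRB10, LGR4, THSD7A and STON1 are 5 human genes that were chosen on these data because their RNA was lower in MV4-11 acute myeloid leukemia (AML) cells with a deletion of MPC1 than in MV4-11 cells with an empty vector, with little change in the other lines. They are 5 of 58051 genes in the table of the knockout series and of 60675 genes in the table of the overexpression series, and all 5 passed the filter on low counts in both. The knockout series held MV4-11, Molm-14 and THP-1 cells that carried a CRISPR/Cas9 deletion of MPC1 made with a single guide RNA (KO) or an empty vector (EV). The overexpression series held MV4-11 and Molm-14 cells that carried a lentiviral vector with the MIR1-2 sequence under the EF1α promoter (OE) or an empty vector (EV). MV4-11 and Molm-14 are AML lines with an internal tandem duplication of FLT3, and THP-1 is a monocytic AML line without it. Each of the 10 groups had n = 3 libraries, 30 in all. Per the paper, the MPC1 guide construct and both vectors of the overexpression series carried GFP. Neither the labels nor the methods say whether the KO cells were a clone or a pool, or whether replicates were separate cultures, so the errors given are the spread between libraries and may be technical.

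INHBA encodes the secreted subunit that pairs to form activin A, a ligand of the TGF-β family that signals through ACVR2A or ACVR2B with ACVR1B to SMAD2 and SMAD3, and that follistatin (FST) neutralizes. LGR4 is a receptor for R-spondins. When bound it takes the ubiquitin ligases ZNRF3 and RNF43 away from Frizzled receptors, which raises the response to Wnt ligands. GRB10 is an adaptor that binds the insulin and IGF1 receptors and dampens their signal. THSD7A is a membrane protein with thrombospondin type 1 repeats, and STON1 (stonin 1) is related to the cargo-binding subunit of the AP-2 adaptor of clathrin-coated pits.

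INHBA (ENSG00000122641, chr7:41667168-41705834), GRB10 (ENSG00000106070, chr7:50590063-50793462) and THSD7A (ENSG00000005108, chr7:11370365-11832198) lie on the short arm of chromosome 7, all on the minus strand of GRCh38. LGR4 (ENSG00000205213) lies at chr11:27365961-27472790 on the minus strand and STON1 (ENSG00000243244) at chr2:48529383-48598513 on the plus strand. INHBA-AS1, a long non-coding RNA, overlaps INHBA on the opposite strand, and LGR4-AS1 overlaps the start of LGR4 in the same way. STON1 shares exons with the readthrough gene STON1-GTF2A1L, which had 0 to 3 counts per library in the knockout series and 3 to 10 in the overexpression series.

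The start sites of the genes do not look alike. RefSeq (GRCh38.p14) gave promoter windows, from 250 bases before to 50 after a start site, for 4 of the 5 genes, and STON1 was named only. The windows of INHBA and LGR4 are shown because each carried more than 1 match to the CCAAT box (letters CCAAT). The INHBA window, whose start site lies inside the longer GENCODE gene, is at chr7:41703041-41703340 and that of LGR4 at chr11:27472741-27473040, both read 5′ to 3′ on the minus strand. Capitals mark matches on either strand to CCAAT or to the TATA box (TATAAA).
INHBA: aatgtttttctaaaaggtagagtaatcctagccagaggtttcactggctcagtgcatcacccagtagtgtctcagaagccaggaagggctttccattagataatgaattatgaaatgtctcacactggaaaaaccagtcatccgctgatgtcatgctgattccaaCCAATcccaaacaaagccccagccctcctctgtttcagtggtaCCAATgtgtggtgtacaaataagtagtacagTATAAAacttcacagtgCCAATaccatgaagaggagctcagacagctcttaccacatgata
LGR4: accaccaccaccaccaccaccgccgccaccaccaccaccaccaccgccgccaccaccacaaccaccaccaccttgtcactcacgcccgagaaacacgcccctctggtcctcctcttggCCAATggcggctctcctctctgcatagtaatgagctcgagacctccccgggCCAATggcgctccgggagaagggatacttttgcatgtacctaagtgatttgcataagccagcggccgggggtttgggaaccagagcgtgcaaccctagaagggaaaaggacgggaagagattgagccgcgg
INHBA held 3 CCAAT matches, at -85, -42 and 6 from the start site, and 1 TATA box at -11, while LGR4 held 2 CCAAT matches, at -132 and -81. A CCAAT match stood in 34.6% of all 35114 promoter windows and a TATA box in 11.5%. THSD7A held no match to these motifs, and among the 5 alternative GRB10 windows 1 held a CCAAT box with 2 matches to the short CRE motif TGACG (24.6% of all windows, and part of the full CRE), and another held 2 TATA boxes on opposite strands. No window of these genes held the AP-1 site TGANTCA, the E-box CACGTG, the full CRE TGACGTCA or the ATF4 core TGATGNAA, on either strand, which stood in 7.71%, 7.26%, 1.85% and 3.62% of all windows. The INHBA window held 1 CpG, against 18 in LGR4, 20 in THSD7A, 3 to 49 in the GRB10 windows and a median of 14 over all windows. The counts are per gene, so which GRB10 start site was in use was not seen.

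The overexpressed miRNA, miR-1-3p, is shown with its seed (bases 2 to 8) in capitals, and beside it the only match to that seed found among the canonical (GENCODE 44) 3′ UTRs of the 5 genes.
hsa-miR-1-3p: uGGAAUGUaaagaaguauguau
THSD7A site: gagtctttgttcACATTCCAcacca
The THSD7A site, at chr7:11371649-11371673 on the minus strand, was an 8mer (ACATTCCA), which 5.32% of the 12567 genes tested in the overexpression series with an annotated 3′ UTR also held. INHBA, GRB10, LGR4 and STON1 held no match to the 7 bases ACATTCC, which were in 13.1% of those genes. The THSD7A 3′ UTR was 5429 bases long, against a median of 1295 bases.

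Expression was given as counts-per-million (CPM) on library sizes scaled by TMM factors. Each library had between 5339360 and 9106478 counts in the knockout series and between 15543301 and 20939985 in the overexpression series. MPC1, the targeted gene, encodes a subunit of the mitochondrial pyruvate carrier and ran from 23.5 to 26.0 CPM in MV4-11 KO against 53.7 to 58.3 in EV, from 33.2 to 41.0 against 72.9 to 80.1 in Molm-14, and from 50.3 to 58.9 against 90.6 to 100.3 in THP-1. Of 12 myeloid marker genes 11 reached 1 CPM in the overexpression series and all 12 did so in the knockout series. Over both series, markers of other cell types summed to between 54.7 and 195.1 CPM for T lymphocytes (5 of 6 genes under 1 CPM in every library), 45.6 and 289.0 for endothelium, 1.14 and 119.7 for B lymphocytes, 0.532 and 35.8 for epithelium, 2.97 and 20.03 for the erythroid list, 0.399 and 11.3 for megakaryocytes and 0 and 2.01 for fibroblasts. Their part in the levels of the 5 genes was not tested. In bulk RNA a lower level in each cell cannot be told apart from fewer cells that express the gene.

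In the knockout series, which chose these genes, INHBA stood at 42.0, 48.1 and 49.5 CPM in the MV4-11 EV libraries and at 18.1, 17.5 and 24.4 CPM in MV4-11 KO. GRB10 stood at 17.6, 21.0 and 17.7 CPM in EV and at 7.82, 7.27 and 9.81 in KO. LGR4 stood at 187.9, 198.3 and 201.1 CPM in EV and at 128.7, 120.0 and 123.1 in KO. For these 3 genes every KO library was below every EV library, and KO replicate 3 was the highest KO library of INHBA and GRB10. THSD7A stood at 49.6, 56.95 and 55.1 CPM in EV and at 26.2, 23.3 and 28.5 in KO. STON1 stood at 15.4, 16.96 and 18.2 CPM in EV and at 8.0, 6.0 and 7.4 in KO, from 118 to 133 counts down to between 48 and 59. Again the groups did not overlap.

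The fitted log2 fold changes were -1.21 (SE 0.157) for INHBA, -1.18 (SE 0.155) for GRB10, -0.66 (SE 0.0745) for LGR4, -1.05 (SE 0.0927) for THSD7A and -1.24 (SE 0.163) for STON1. LGR4, the most abundant of the 5, kept 63.3% of its EV level in KO, whereas the other 4 kept between 42.3% and 48.3%. These values chose the genes and were given no test. Over all 14490 genes tested, 2.24% were lower at a false discovery rate (FDR) under 5% and 3.17% were higher, and the median log2 fold change was 0.02. Among the 324 genes called lower, STON1 ranked 14th by fold change, INHBA 15th, GRB10 17th, THSD7A 28th and LGR4 84th. The choice of the genes fixes that they stand in this group, so nothing is read from the ranks.

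**Figure D1:**
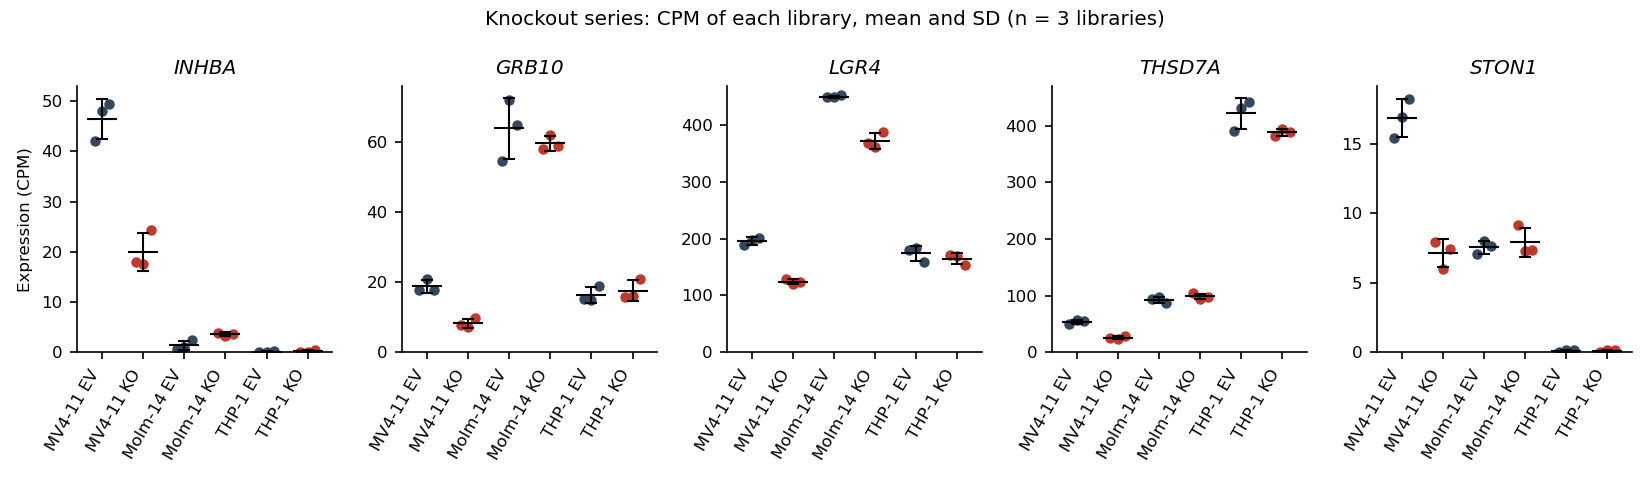
Expression (CPM, linear axis from 0) of the 5 genes in the 18 libraries of the knockout series, 1 panel per gene; points are libraries (dark for EV, red for KO), and bars give the mean and SD of n = 3 libraries. In MV4-11 the KO libraries lie below the EV libraries in each panel, and THP-1 has almost no INHBA or STON1 but the highest THSD7A, at 391.0 to 442.7 CPM in EV.

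INHBA-AS1 stood at 19.4, 19.1 and 17.3 CPM in MV4-11 EV and at 16.2, 15.5 and 14.6 in KO, a log2 fold change of -0.27 (SE 0.179, FDR = 0.386 by edgeR's quasi-likelihood test). Every KO library was below every EV library, as for INHBA, but the difference did not pass the test. Library preparation kept the strand, but whether counting used it is not stated in the sources used here, so reads of this pair may be mixed.

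Little change in the other lines was part of the choice, so values there are description only. The fold change of INHBA in Molm-14 was still not small. In Molm-14, INHBA stood at 0.673, 1.13 and 2.37 CPM in EV and at 3.94, 3.33 and 3.75 in KO, from 4, 10 and 18 counts up to 25, 25 and 24. Every KO library was above every EV library, a direction opposite to that in MV4-11, with a log2 fold change of 1.35 (SE 0.331). The value rests on few counts and came to 1.94 without Molm-14 EV replicate 3. The 21 genes that reached 20 CPM in each MV4-11 EV library and stayed under 0.2 CPM in each Molm-14 EV library, a choice made after seeing the data, summed in Molm-14 KO to between 0.0590% and 0.221% of their MV4-11 EV level and in Molm-14 EV, where they are low by choice, to between 0.0254% and 0.119%. The INHBA difference of 2.28 CPM was 4.90% of the MV4-11 EV level. Whether RNA of the other line had a part in it was not tested.

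LGR4 in Molm-14 stood at 448.8, 448.1 and 451.4 CPM in EV and at 367.9, 360.2 and 387.7 in KO. The groups did not overlap here either, and the log2 fold change was -0.27 (SE 0.0718), in the direction seen in MV4-11. GRB10 (-0.10, SE 0.117), THSD7A (0.08, SE 0.0824) and STON1 (0.06, SE 0.180) overlapped between Molm-14 KO and EV. Of all genes tested, 1.06% were called lower and 1.34% higher in Molm-14 KO. These are shares of calls, and the share of all genes without overlap is not given here. Since this comparison also chose the genes, nothing is read from the 2 of 5 that did not overlap.

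In THP-1, GRB10 (0.11, SE 0.148), LGR4 (-0.08, SE 0.0745) and THSD7A (-0.12, SE 0.0769) overlapped between KO and EV. INHBA and STON1 had 0 to 3 counts in each THP-1 library, at or under the 3 counts that a count of 0 allows, so no fold change was given. A fall could therefore not be seen at this depth for those genes. Of all genes tested, 0.0897% were called in THP-1 KO in either direction.

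The genes differed in which line expressed them most. GRB10 was highest in Molm-14 (63.8 ± 8.82 CPM in EV, SD, n = 3), and its MV4-11 EV libraries overlapped those of THP-1. LGR4 was also highest in Molm-14 (449.5 ± 1.72 CPM), with MV4-11 EV above THP-1 EV (174.1 ± 13.7 CPM). THSD7A had the order THP-1 (421.6 ± 27.1 CPM), Molm-14 (93.2 ± 5.32 CPM) and MV4-11 (53.9 ± 3.84 CPM), with no overlap between the EV groups. STON1 was highest in MV4-11 EV (16.9 ± 1.38 CPM) and INHBA was nearly limited to MV4-11 (46.5 ± 3.97 CPM). Per kilobase of exon in MV4-11 EV, LGR4 led at 30.8 CPM, followed by INHBA at 5.62, THSD7A at 4.93, STON1 at 2.19 and GRB10 at 1.92.

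The MIR1-2 vector addressed another question, whether these genes moved in cells made to overexpress miR-1. These libraries did not choose the genes. The paper's qPCR figure of mature miR-1 is of MV4-11 OE cells, and no miR-1 level of these libraries is given here. In MV4-11, THSD7A stood at 12.3, 12.4 and 14.6 CPM in OE and at 9.38, 9.65 and 9.54 in EV. Every OE library was above every EV library, a log2 fold change of 0.46 (SE 0.0879, FDR = 0.0365 by edgeR's quasi-likelihood test). THSD7A, the gene with the miR-1 8mer, was thus higher and not lower in OE, and the sign was opposite to that in MV4-11 KO. With the replicate number as a block the FDR was 0.247, with the 6 MV4-11 libraries alone it was 0.713, and leaving out any MV4-11 library other than OE replicate 1 brought it above 0.05. It was then 0.0732 for OE replicate 2, 0.166 for OE replicate 3, and 0.139, 0.108 and 0.0585 for EV replicates 1, 2 and 3.

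Molm-14 held far more THSD7A than MV4-11. The 38 genes with at least 20 CPM in each Molm-14 EV library and under 0.2 CPM in each MV4-11 EV library, a choice made after seeing the data, summed to between 0.161% and 0.202% of their Molm-14 level in MV4-11 OE and to between 0.0462% and 0.0668% in MV4-11 EV, where they are low by choice. The THSD7A difference of 3.54 CPM was 4.92% of its Molm-14 EV level. Whether RNA of the other line had a part in it was not tested.

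The other 4 genes did not pass the test in MV4-11 OE. LGR4 stood at 59.2, 52.5 and 59.8 CPM in OE and at 53.1, 50.6 and 51.5 in EV (log2 fold change 0.14, SE 0.0551, FDR = 0.664). STON1 stood at 3.59, 5.01 and 3.28 CPM in OE and at 5.04, 5.50 and 4.36 in EV (-0.33, SE 0.193, FDR = 0.955). Both overlapped between groups. INHBA stood at 47.2, 32.1 and 25.7 CPM in OE and at 34.2, 27.8 and 57.3 in EV (-0.18, SE 0.296, FDR = 1). GRB10 stood at 50.5, 33.6 and 21.4 CPM in OE and at 22.4, 21.1 and 41.2 in EV (0.32, SE 0.335, FDR = 1). Of all 17542 genes tested, 0.0513% were called higher and 0.125% lower, so 1 call among 5 genes stood beside 31 among all.

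**Figure D2:**
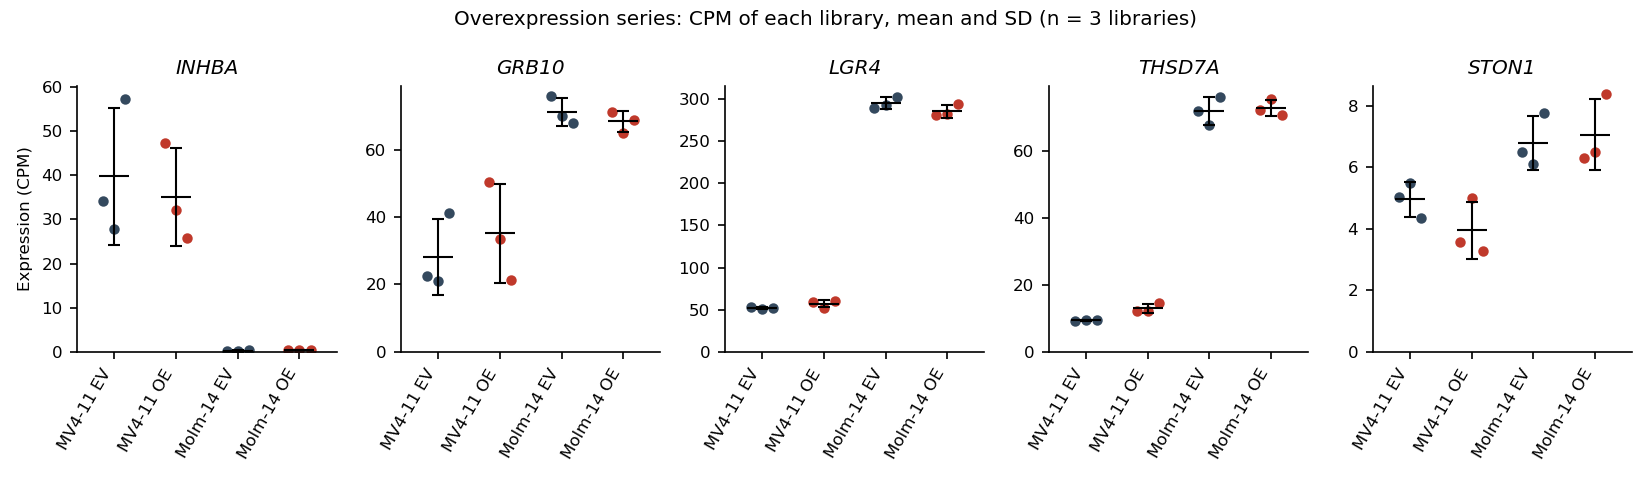
Expression (CPM, linear axis from 0) of the 5 genes in the 12 libraries of the overexpression series, 1 panel per gene; points are libraries (dark for EV, red for OE), and bars give the mean and SD of n = 3 libraries. INHBA is near 0 in Molm-14, THSD7A separates MV4-11 OE (12.3 to 14.6 CPM) from EV (9.38 to 9.65 CPM), and INHBA and GRB10 scatter widely within each MV4-11 group.

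INHBA and GRB10 varied more between MV4-11 libraries of 1 group than between OE and EV. Both were highest in OE replicate 1 and EV replicate 3. These were also the 2 libraries with the highest mean log2 CPM of 20 interferon-stimulated genes, a list added after seeing the data, at 4.86 and 2.63 against -0.02 to 0.39 in the other 4 MV4-11 libraries. THSD7A did not follow them, since OE replicate 1 (12.3 CPM) and OE replicate 2 (12.4 CPM) were alike. Without these 2 libraries the log2 fold change was -0.09 for INHBA (FDR = 0.912), 0.35 for GRB10 (FDR = 0.667) and 0.50 for THSD7A (FDR = 0.0210). In the knockout series the same list ran from 0.59 to 0.91 in MV4-11 EV and from 0.78 to 0.96 in MV4-11 KO. Its part in the INHBA and GRB10 levels was not tested.

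**Figure D3:**
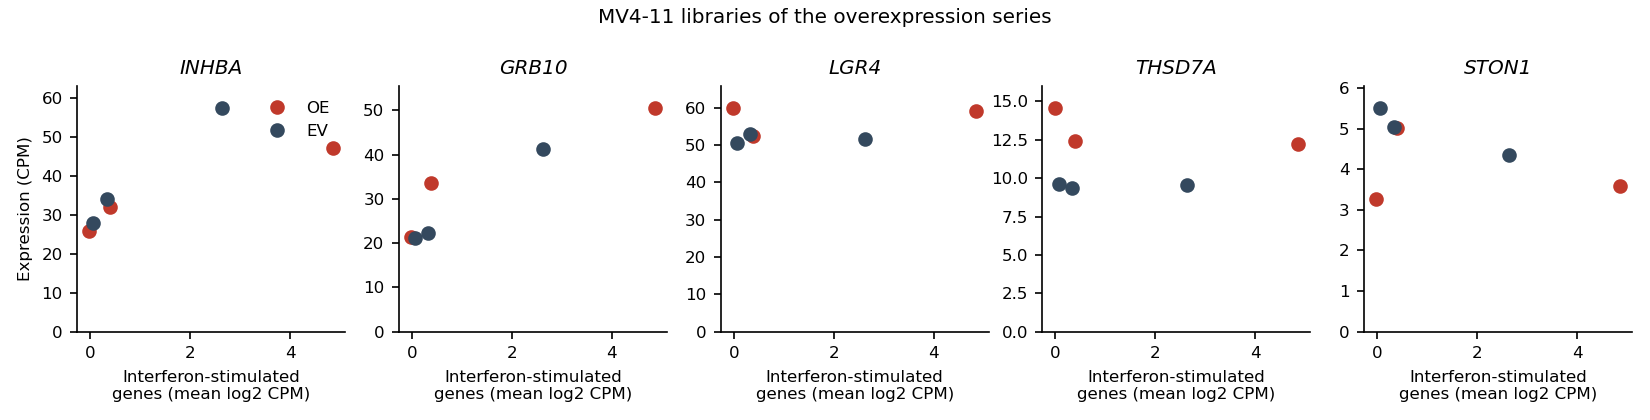
Expression of the 5 genes (CPM, linear axis from 0) against the mean log2 CPM of 20 interferon-stimulated genes in the 6 MV4-11 libraries of the overexpression series, with OE in red and EV in dark. The 2 libraries at 2.63 and 4.86 are the highest in INHBA and GRB10, and the 3 OE libraries lie above the 3 EV libraries in THSD7A, with no level above 0.39 that holds both.

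In Molm-14 none of the 5 genes passed the test in OE (FDR = 1 for each by edgeR's quasi-likelihood test), where 0.0057% of all genes were called. The log2 fold changes were -0.06 (SE 0.310) for GRB10, -0.05 (SE 0.0505) for LGR4, 0.02 (SE 0.0677) for THSD7A and 0.05 (SE 0.183) for STON1. INHBA had 2 to 9 counts per library, and its log2 fold change of 0.36 had an SE of 1.25. Across the 5 genes the unadjusted p was under 0.05 for none. The difference of the OE effect between MV4-11 and Molm-14 was tested directly and passed for none of the 5, with 0.0456% called among all genes. It was largest in relation to its error for THSD7A, at 0.44 (SE 0.111, unadjusted p = 0.000899, FDR = 0.417), followed by LGR4 at 0.19 (SE 0.0747, unadjusted p = 0.0184, FDR = 0.823), and DESeq2 passed none of the 5 either.

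**Figure D4:**
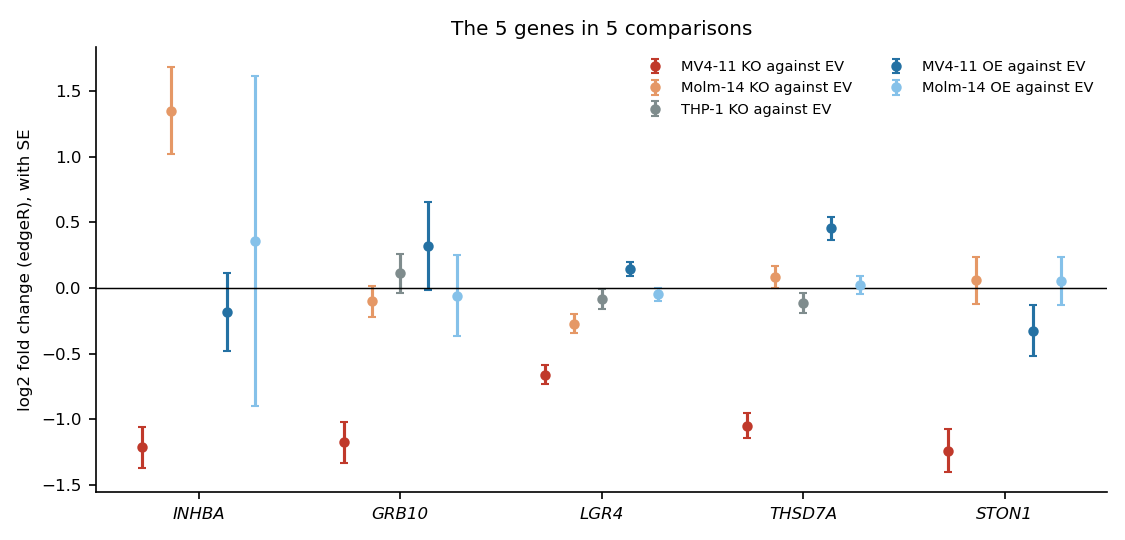
Log2 fold change with its SE from edgeR (vertical axis) of the 5 genes in 5 comparisons, each against EV cells of that line; THP-1 values of INHBA and STON1 are left out because each library had 0 to 3 counts. The MV4-11 KO points, which chose the genes, lie between -1.24 and -0.66, INHBA in Molm-14 KO lies at 1.35, and THSD7A in MV4-11 OE at 0.46.

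The 2 lines also differed in their EV cells, in libraries that did not choose the genes. In the overexpression series MV4-11 EV had more INHBA than Molm-14 EV, with a log2 difference of 7.10 (SE 0.561, FDR = 3.05e-06), at 27.8 to 57.3 against 0.119 to 0.526 CPM. The other 4 genes were lower in MV4-11 EV, GRB10 by a log2 difference of -1.34 (SE 0.327, FDR = 0.00612), LGR4 of -2.51 (SE 0.0549, FDR = 1.34e-18), THSD7A of -2.92 (SE 0.0800, FDR = 4.85e-17) and STON1 of -0.45 (SE 0.186, FDR = 0.0411). Since 32.9% of all genes were called higher and 31.9% lower, a call is the common outcome here. STON1 lost its call without MV4-11 EV replicate 1 (FDR = 0.0771) or 3 (FDR = 0.129) and without Molm-14 EV replicate 1 (FDR = 0.0670) or 3 (FDR = 0.172), all by edgeR. GRB10 lost it with the replicate block (FDR = 0.0527).

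For STON1, the 2 series gave opposite orders of the lines. The mean of MV4-11 EV was 0.731 times that of Molm-14 EV in the overexpression series and 2.23 times in the knockout series, with no overlap between the lines' libraries in either. In KO cells the ratio of MV4-11 to Molm-14 was 0.899, and the libraries overlapped. For THSD7A the ratio of MV4-11 to Molm-14 was 0.132 in EV of the overexpression series, 0.578 in EV of the knockout series and 0.263 in KO. For LGR4 it was 0.175, 0.436 and 0.333. For GRB10 it was 0.396, 0.295 and 0.139, and for INHBA 142.8, 33.5 and 5.45. The choice of the genes fixes that the KO ratio is below the EV ratio of the same series, so nothing is read from it. Each ratio was taken within 1 table, and the difference between series was not tested. The mitochondrial genome gave 0.140% to 0.452% of the counts per library in the knockout series. In the overexpression series it gave 2.72% to 4.34%. Separate vectors, cultures, library depth, RNA content and counting annotations cannot be told apart.

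The signalling partners of the genes were read from 5 lists of other pathway genes, of which 182 of 236 genes were tested in the knockout series. In MV4-11 KO 7 of these were called higher and 11 lower, 3.85% and 6.04%, beside the 3.17% and 2.24% of all genes, with a median log2 fold change of -0.07 beside 0.02. In Molm-14 KO 3 were called higher and 5 lower, 1.65% and 2.75%, beside 1.34% and 1.06% of all genes. In THP-1 KO none was called by edgeR or DESeq2, with 16 at an unadjusted p under 0.05 and 1 called without the filter on low counts. Of all genes, 0.0897% were called there by edgeR. The lists were written with earlier results of these data known and are described by counts only.

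In the activin and TGF-β list 2 of 41 tested genes were higher and 3 lower in MV4-11 KO, with a median of -0.04. The lower genes were GDF11, a ligand of the family (from 20.8 ± 0.682 CPM in EV to 13.7 ± 2.06 in KO, FDR = 0.0234), TGFBR1, a type I receptor (-0.31, FDR = 0.0141), and FURIN, a protease that cleaves the precursors of these ligands (-0.50, FDR = 0.0348). ID2, a transcriptional inhibitor induced by BMP signals, was higher (from 37.8 ± 3.599 to 56.0 ± 5.28 CPM, FDR = 0.00334). The activin receptors did not pass, with log2 fold changes of -0.01 for ACVR1B (FDR = 0.996), -0.25 for ACVR2A (FDR = 0.699) and 0.15 for ACVR2B (FDR = 0.499). FST had at most 15 counts in any library. None of the 41 genes was called in Molm-14 KO by edgeR, with 6 at an unadjusted p under 0.05.

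In the R-spondin and Wnt list 1 of 32 tested genes was higher in MV4-11 KO and none lower, with a median of -0.11. It was PORCN, which acylates Wnt ligands (from 1.45 ± 0.340 to 3.30 ± 1.095 CPM, FDR = 0.0492), and DESeq2 called none of the list. ZNRF3, the ligase that LGR4 counters, stood at 14.5 ± 1.34 CPM in EV and 13.1 ± 1.71 in KO (FDR = 0.596). The other direct partners were nearly silent, since RSPO2, RSPO3, RSPO4, RNF43 and LGR5 had at most 4 counts in any library and RSPO1 at most 13. In Molm-14 KO the Frizzled receptor FZD3 was lower (from 101.4 ± 12.04 to 61.6 ± 0.520 CPM, FDR = 1.91e-05) and NKD2, an inhibitor of Wnt signalling, was higher (0.49, FDR = 0.0324).

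In the insulin and IGF list 2 of 40 tested genes were higher and 4 lower in MV4-11 KO, with a median of -0.14. IGF1 was among the higher genes (from 21.1 ± 5.52 to 33.9 ± 4.10 CPM, FDR = 0.0289). IGFBP2, a binding protein of IGFs, was lower in MV4-11 KO (from 225.5 ± 41.6 to 130.4 ± 24.3 CPM, FDR = 0.00187) and in Molm-14 KO (from 98.0 ± 9.29 to 60.8 ± 8.65 CPM, FDR = 0.00829). GIGYF2, a protein named for its binding to GRB10, was lower (-0.37, FDR = 0.00533), as was the docking protein GAB2 (-0.38, FDR = 0.0233). INSR, the insulin receptor, was lower in MV4-11 KO (from 134.2 ± 9.43 to 104.7 ± 6.11 CPM, -0.36, FDR = 0.0371). IGF1R went from 14.3 ± 3.91 to 9.60 ± 2.75 CPM there without passing (-0.57, FDR = 0.317). In Molm-14 KO the log2 fold changes were -0.33 for INSR (FDR = 0.0816) and -0.79 for IGF1R (FDR = 0.218). In THP-1 KO they were -0.20 (FDR = 0.632) and 0.03 (FDR = 0.998). None in these other lines passed, but the INSR fall was of like size in Molm-14. GRB7 and GRB14, the relatives of GRB10, had at most 1 count in any library.

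In the list of proteins with thrombospondin type 1 repeats 1 of 26 tested genes was higher and 1 lower in MV4-11 KO, with a median of 0.03. ADAMTS10, a secreted protease, was higher (from 2.79 ± 0.915 to 6.44 ± 0.515 CPM, FDR = 0.00404) and the netrin receptor UNC5C was lower (-0.46, FDR = 0.0133). In Molm-14 KO the secreted protein ISM1 (-1.03, FDR = 0.0181) and the protease ADAMTS9 (from 61.3 ± 8.54 to 40.1 ± 2.24 CPM, FDR = 0.0218) were lower. THSD7B, the paralog of THSD7A, had at most 7 counts in any library. In MV4-11 OE, where no other gene of the 5 lists was called, ADAMTS9 had 7, 12 and 6 counts against 0, 1 and 0 in EV (FDR = 0.00381). ADAMTS9 passed the filter on low counts only through Molm-14, so nothing is read from the call. With the MV4-11 libraries alone it was not among the genes tested. The ratio was 25.4 with a 95% counting interval of 4.16 to 1043 (exact binomial, counting error only), against 54.4 to 60.8 CPM in Molm-14. In Molm-14 OE none of the 176 list genes was called by edgeR or DESeq2, with 6 at an unadjusted p under 0.05 and 5 called with the 6 Molm-14 libraries alone.

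In the clathrin endocytosis list 1 of 43 tested genes was higher and 3 lower in MV4-11 KO, with a median of -0.07. STON2, the paralog of STON1, was lower in MV4-11 KO (from 13.2 ± 1.13 to 9.15 ± 1.31 CPM, FDR = 0.0383) and in Molm-14 KO (from 8.11 ± 0.793 to 5.13 ± 0.376 CPM, FDR = 0.0432), while in THP-1 KO it went from 5.43 ± 0.487 to 4.17 ± 0.811 CPM (FDR = 0.650). EPS15L1, an adaptor of coated pits (-0.59, FDR = 0.0196), and SH3GL1, an endophilin (-0.46, FDR = 0.0322), were lower in MV4-11 KO. SYT2, a synaptotagmin, was higher (from 3.61 ± 0.399 to 8.46 ± 1.54 CPM, FDR = 0.00112). HIP1, which binds clathrin, was higher in Molm-14 KO (0.53, FDR = 0.00438). AP2M1, the AP-2 subunit to which stonins are related, stood at 328.2 ± 37.2 CPM in MV4-11 EV and 324.9 ± 27.4 in KO (FDR = 0.958).

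Many of these calls were lost when 1 library was left out. Such a fit also has fewer libraries to test with, so a lost call does not show that it rested on 1 library. Of the 15 list genes that the naming rule took from those called in MV4-11 KO, ID2, IGFBP2, GIGYF2, ADAMTS10 and SYT2 kept their call without each of the 6 libraries in turn. The other 10 lost it without at least 1, most often without EV replicate 3, which lost 10, and KO replicate 1, which lost 9. EV replicate 2 lost 8, KO replicate 2 lost 5, EV replicate 1 lost 2 and KO replicate 3 lost 1. The number of list genes called ran from 5 to 24 over these fits. INSR, named as a partner, and IGF1, named outside the rule, were not among the 15. In Molm-14 KO 2 of the 7 named genes, FZD3 and HIP1, kept their call without each library.

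**Figure D5:**
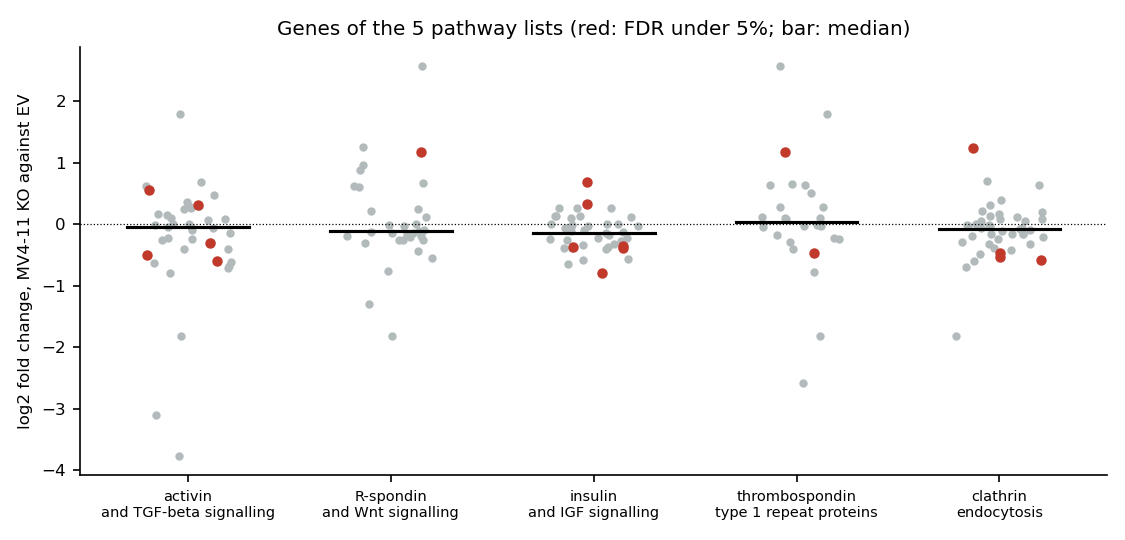
Log2 fold change of the tested genes of the 5 pathway lists in MV4-11 KO against EV (vertical axis), 1 column per list; points are genes, red where the FDR was under 5%, and bars are list medians. The medians lie between -0.14 and 0.03, and calls go in both directions in 4 of the 5 lists.

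The position of the genes was examined because 3 of them lie on the short arm of chromosome 7, which their choice did not use. Of the 253 other genes tested that start below position 58000000 of chromosome 7, 7 were higher and 3 lower in MV4-11 KO, 1.19% lower against 2.24% of all genes, with a median of 0.03. Of the 20 tested genes that start within 1 Mb of 1 of the 5 genes, none was called lower by edgeR or DESeq2. Only 1 was called higher by edgeR. This was TMEM106B, a lysosomal membrane protein that starts upstream of THSD7A (0.37, SE 0.1002, FDR = 0.0300). At an unadjusted p under 0.05 by edgeR, PHF14 and the pseudogene THRAP3P3 were also lower. KIF18A, METTL15, NDUFA4 and FOXN2 were also higher at that p. THRAP3P3 starts inside THSD7A, 10.9 kb downstream of its start. Without MV4-11 EV replicate 1, 1 of the 20 genes was called lower.

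The genes most like each of the 5 across the 18 libraries of the knockout series were found by Pearson's r of log2 CPM among the 8676 tested genes that averaged 100 counts or more. The 18 libraries are 3 lines with 6 libraries each, so r mostly follows the lines and is a description only. The 12 libraries of the overexpression series are 2 lines, so r there can follow the lines as well and is also a description only. For INHBA they were ARHGEF3 (r = 0.970), TP53INP1 (r = 0.970) and PIM1 (r = 0.968). Over the 12 libraries of the overexpression series r was 0.988 for ARHGEF3 and 0.990 for PIM1 but 0.196 for TP53INP1. For GRB10 they were PSAT1, an enzyme of serine synthesis (r = 0.974, and 0.981 in the overexpression series), GPATCH4 (0.970 and 0.639) and LGR4 itself (0.968 and 0.869). For LGR4 they were GPATCH4 (0.977 and 0.896), GRB10 and KIF16B (0.964 and 0.975). For THSD7A they were PKP4 (0.987 and 0.962), APLP2 (0.982 and 0.975) and the interleukin-6 receptor gene IL6R (0.982 and 0.988). For STON1 they were YBX3 (0.992), ABR (0.983) and TRIM8 (0.983), of which YBX3 (-0.33) and TRIM8 (-0.79) went the other way in the overexpression series and ABR did not (0.839).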

How the data were processed

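The deposited counts were raw whole-number reads per Ensembl gene in 1 table per series. Per the labels and methods, the authors prepared stranded total RNA with ribosomal depletion, trimmed reads with cutadapt 1.16, aligned them to GRCh38 with STAR 2.7.6a and counted them with featureCounts 1.6.3. The tables follow different annotation releases, so no level was compared between them. The 5 genes and all lists were chosen with earlier results of these data known.

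Counts were fitted per series with edgeR 4.0.16 in R 4.3.3 (filterByExpr, TMM, robust quasi-likelihood test, a mean per group, Benjamini-Hochberg over 17542 and 14490 genes). DESeq2 1.42.0, size-factor scaling, a filter of 1 count, 1 line alone, a replicate block and leaving out libraries were alternatives. The fits were tested on simulated data. Named beside the 5 genes are MPC1, their direct partners, up to 4 list genes of lowest FDR in MV4-11 KO and 2 in each other comparison, called neighbours within 1 Mb and the 3 best correlates. Outside this rule, IGF1 and the neighbours at an unadjusted p under 0.05 in MV4-11 KO are named as well. Log2 CPM used a prior count of 2. GENCODE 44 held 60419 and 56948 of the gene IDs. Replicate pairs differed by more than counting noise (chi-square per degree of freedom 1.55 to 17.8). In no line did all 3 same-numbered pairs correlate above 0.1, so the numbers were not taken as pairs. The result of 1 gene that the rule took is not reported here.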

Additional observations from a re-analysis of the deposited data

Results flagged for a closer look

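For INHBA the fitted log2 fold change had opposite signs in the knockout cells of 2 lines. It was -1.21 in MV4-11 KO and 1.35 in Molm-14 KO, with no overlap between KO and EV in either line. The Molm-14 value rests on 4 to 18 counts per library in EV and 24 to 25 in KO. The difference itself was not tested, because these comparisons chose the gene.

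ADAMTS9 differed between lines in its OE effect, with a log2 difference of 4.21 (4.215 before rounding, SE 0.649, FDR = 0.0134 by edgeR's quasi-likelihood test). The value rests on 25 counts in MV4-11 OE and 1 in MV4-11 EV. ADAMTS9 passed the filter on low counts only through Molm-14, so nothing is read from the call. Molm-14 had 54.4 to 60.8 CPM, and whether RNA of that line had a part in the value was not tested.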

How the results depend on the processing

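The MV4-11 KO values of the 5 genes, which chose them, kept their direction under each of 11 alternatives, and nothing is read from that. With 1 library left out these values ran from -1.38 to -1.12 for INHBA, -1.32 to -1.08 for GRB10, -0.69 to -0.64 for LGR4, -1.12 to -0.97 for THSD7A and -1.32 to -1.13 for STON1. The THSD7A call in MV4-11 OE (0.46) was lost with 6 libraries of the line alone (0.45), and ran from 0.37 to 0.50 with 1 library left out. It was kept with DESeq2's size factors (FDR = 0.0410), without the filter (0.00145) and with DESeq2 (0.0138). Without the 2 MV4-11 libraries high in interferon genes, an alternative chosen after seeing the data, it was kept (FDR = 0.0210), while STON1 between lines (-0.36) lost its call. STON1 between lines ran from -0.53 to -0.34 with 1 library left out. Directions turned with 1 library left out for log2 fold changes under the threshold, namely in MV4-11 OE for INHBA (-0.45 to 0.18) and GRB10 (-0.0208 to 0.69), in Molm-14 OE for INHBA (-0.0037 to 1.20), THSD7A (-0.0216 to 0.0627) and STON1 (-0.0838 to 0.16), in Molm-14 KO for STON1 (-0.0519 to 0.12) and in THP-1 KO for GRB10 (-0.0247 to 0.22). List genes called went from 1 to 2 in MV4-11 OE without the filter and to 0 with the line alone, where ADAMTS9 was not among the genes tested, and from 0 to 5 in Molm-14 OE with the line alone. They went from 1 to 0 for the difference between lines with DESeq2 (0 to 1 with 1 library left out), from 18 to 9 in MV4-11 KO with the line alone (5 to 24 with 1 left out), from 8 to between 3 and 6 in Molm-14 KO with 1 left out, and from 0 to 1 in THP-1 KO without the filter. Genes called lower on chromosome 7 below position 58000000 went from 3 to 6 without the filter and 5 with DESeq2 (1 to 6 with 1 left out), and those around the 5 genes ran from 0 to 1. The cause of these changes was not tested. Of 814 values recomputed, 658 kept direction and side of the threshold, 87 lost a call, 60 moved by more than their limit and 9 turned direction.

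Replicate numbers were not taken as pairs. In no line did all 3 same-numbered pairs deviate together with a correlation over 0.1 (-0.38 to 0.33). In THP-1 they were 0.179, 0.0987 and 0.330, and 5 of 6 libraries correlated best with their own number, against 0 to 2 of 6 in each other line of a series. With the replicate number as a block, THSD7A in MV4-11 OE (0.45, FDR = 0.247) and GRB10 between lines (-1.34, FDR = 0.0527) lost their calls, list genes called went to 28 in MV4-11 KO and to 0 for the difference between lines, and genes lower on chromosome 7 went to 9. INHBA and STON1 in THP-1 (0 to 3 counts) were too low for a fold change.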
